A study of Mus musculus with 12 samples.

Results

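Major histocompatibility complex (MHC) class I molecules were followed here through 10 genes that build them and load them with peptide: the heavy chains H2-K1 and H2-D1, the light chain B2m, the peptide transporter subunits Tap1 and Tap2, tapasin (Tapbp), the immunoproteasome subunits Psmb8, Psmb9 and Psmb10, and the transactivator Nlrc5. The genes were chosen by name for their place in the pathway, with earlier results of these data known. A count was matched for 9 of the 10 among the 36439 genes counted. Psmb9 is not analysed here.

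The 12 libraries hold bulk RNA of tumour-associated macrophages (TAMs), the macrophages that live inside a solid tumour. All came from Lewis lung carcinoma, a transplantable mouse lung tumour, growing under the skin of C57BL/6 mice, and they formed 4 groups of 3 libraries. MRC1+ TAMs were F4/80+ cells that carried the mannose receptor MRC1, and CD11c+ TAMs were F4/80+ cells that carried the integrin CD11c. miR-511-3p TAMs were F4/80+ cells that overexpressed the microRNA miR-511-3p, and miR-511-3p-mut TAMs overexpressed a mutated form of it. The titles of both overexpression groups carry the tag SFFV. The sources used here do not give the age of the mice, how the overexpression was achieved, or whether numbered replicates are separate mice. The p-values below therefore rest on the spread between libraries, which may be technical. Mrc1, the gene of the sorting marker, stood at 3730 to 4209 CPM (the read count of a gene scaled to the reads counted to all genes of its library) in the MRC1+ libraries and at 1413 to 1770 in the CD11c+ libraries. Itgax, which encodes CD11c, stood at 81.3 to 126 and at 872 to 1019. Adgre1, which encodes F4/80, stood at 1102 to 1263 and at 526 to 747. These CPM of the sorting markers use library totals alone. All other CPM also use TMM scaling factors, set within each comparison. The hairpin gene Mir511 had 63 to 80 reads in the miR-511-3p libraries and 3 to 9 in the miR-511-3p-mut libraries, and whether the mutated hairpin aligns there is not known. The libraries held 10824918 to 27890433 reads counted to genes. The 9 macrophage markers summed to 8849 to 14285 CPM with none at 0, each comparison scaled on its own.

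Class I molecules show peptides from inside the cell to CD8 T cells. The proteasome cuts cytosolic proteins, the TAP transporter carries the peptides into the endoplasmic reticulum, and tapasin holds an empty heavy chain and B2m at the transporter until a peptide binds. Interferon gamma raises the transcription of most of these genes through factors that include IRF1 and NLRC5, and it also swaps the standard catalytic subunits of the proteasome for the immunoproteasome subunits. Macrophages carry class I molecules at baseline and can also place peptides of engulfed material on them, a route called cross-presentation.

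Some of the class I genes share letters of known control elements, and the sequences before their starts are shown for that reason. RefSeq gives a promoter for 8 of the 10 genes on GRCm38.p6 (not for Tap2 or Nlrc5). The 5 windows below read 5′ to 3′ on the strand of the gene, except that the stretch between Psmb9 and Tap1, whose divergent starts share it, is given on the strand of Tap1. Capitals mark the motifs that a search of both strands found: the letters GGGGATTCC of the enhancer bound by NF-kappaB, TGACG of the X2 box, CCAAT of the Y box, written ATTGG where it lies on the other strand, the core TTTCNNTTT of the interferon-stimulated response element, and TTCNNNGAA of the interferon gamma-activated site (GAS).
H2-D1, chr17:35262844-35263093, plus strand: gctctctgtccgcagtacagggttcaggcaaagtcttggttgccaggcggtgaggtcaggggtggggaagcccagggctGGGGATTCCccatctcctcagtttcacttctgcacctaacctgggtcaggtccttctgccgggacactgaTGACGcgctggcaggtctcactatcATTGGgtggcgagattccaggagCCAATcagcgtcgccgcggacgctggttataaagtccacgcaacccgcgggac
H2-K1, chr17:34000334-34000583, minus strand: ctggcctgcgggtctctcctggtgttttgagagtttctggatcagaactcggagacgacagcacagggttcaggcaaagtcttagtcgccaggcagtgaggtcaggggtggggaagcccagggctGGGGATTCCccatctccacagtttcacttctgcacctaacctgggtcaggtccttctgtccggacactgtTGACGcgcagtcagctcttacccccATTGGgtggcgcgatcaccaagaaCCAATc
B2m, chr2:122147437-122147686, plus strand: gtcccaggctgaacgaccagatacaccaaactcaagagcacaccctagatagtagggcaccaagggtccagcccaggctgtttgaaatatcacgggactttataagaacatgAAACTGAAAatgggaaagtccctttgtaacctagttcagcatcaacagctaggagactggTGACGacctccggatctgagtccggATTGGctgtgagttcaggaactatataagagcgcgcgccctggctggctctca
Psmb9 to Tap1, chr17:34187331-34187555, plus strand: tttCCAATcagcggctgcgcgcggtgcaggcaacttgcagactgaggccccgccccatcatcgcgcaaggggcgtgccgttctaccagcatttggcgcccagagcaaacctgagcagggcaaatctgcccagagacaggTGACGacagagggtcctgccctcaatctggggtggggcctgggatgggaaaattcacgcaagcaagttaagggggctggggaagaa
Psmb8, chr17:34197945-34198194, plus strand: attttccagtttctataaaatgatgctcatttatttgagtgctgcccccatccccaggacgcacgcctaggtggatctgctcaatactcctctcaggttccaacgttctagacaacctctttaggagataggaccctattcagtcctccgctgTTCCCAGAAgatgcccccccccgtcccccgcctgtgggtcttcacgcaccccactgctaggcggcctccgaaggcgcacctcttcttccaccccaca

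H2-K1 and H2-D1 share an exact run of 47 bases around GGGGATTCC, letters that only 0.213% of the 32851 RefSeq promoter entries hold. TGACG followed by CCAAT downstream was found before H2-K1, H2-D1 and B2m. The stretch between Psmb9 and Tap1 holds both, but in another order on the strand of Tap1. There CCAAT, at -222 to -218 from the start of Tap1, lies upstream of TGACG, at -86 to -82. TGACG occurs in 17.8% and CCAAT in 33.8% of all entries. B2m holds the interferon-stimulated core as AAACTGAAA at -138 to -130 from its start, letters found in 9.37% of entries. H2-K1 and H2-D1 hold TTTCACTTC, which differs from the core TTTCNNTTT in its last letter and was therefore not marked. Psmb8 holds the GAS letters as TTCCCAGAA at -97 to -89, found in 7.02%. Tapbp holds CCAAT at 2 places, and the window of Psmb10 holds none of these motifs. The longer X2 letters TGACGT, held by 6.47% of entries, were not found in the windows of these genes. GGGGATTCC and TGACG were added to the search after the windows were seen. A match describes letters and does not show that a factor binds. A marked CCAAT or TGACG need not be part of a Y or X2 box.

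The first comparison asks how MRC1+ and CD11c+ TAMs of the same tumour type differ. All 9 class I genes measured had a lower mean in MRC1+ than in CD11c+ TAMs, and 6 of them passed the test: Tap1, Tap2, Tapbp, Psmb8, Psmb10 and Nlrc5. The largest differences were in Psmb8 and Tap1, which were 1.87-fold and 1.85-fold lower in MRC1+ TAMs. The heavy chains H2-K1 and H2-D1 and the light chain B2m did not pass. The median log2 fold change of the 9 genes was -0.48, against 0.01 over all 15622 genes tested. A gene passed at a Benjamini-Hochberg adjusted p under 0.05 in edgeR's quasi-likelihood test, as did 16.6% of all genes in either direction and 9.71% as lower in MRC1+ TAMs. The MRC1+ libraries lay wholly below the CD11c+ libraries for 7 of the 9 genes, and for 19.6% of all genes tested. Of all calls, 58.4% were lower in MRC1+ TAMs, and 40.4% when libraries were scaled by their totals alone.

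**Figure D1:**
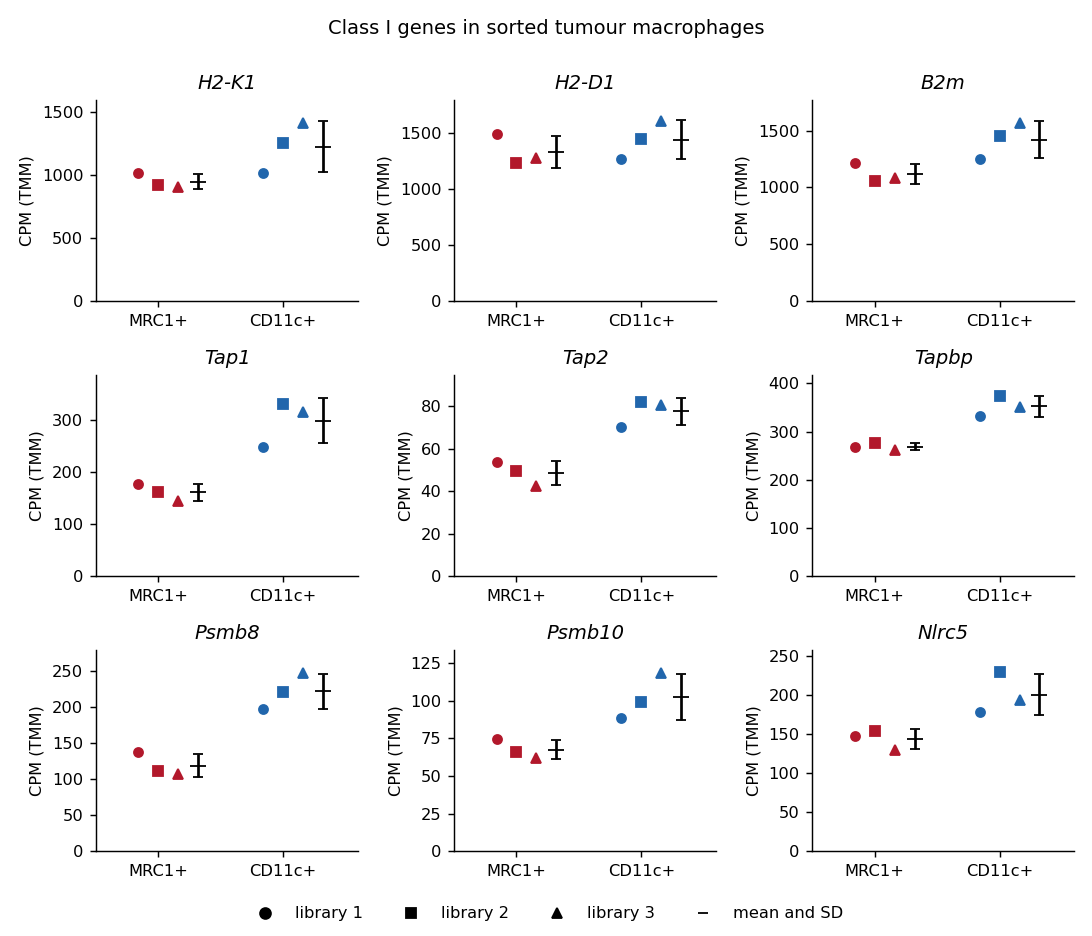
CPM of the 9 class I genes (vertical axes from 0) in the MRC1+ (red) and CD11c+ (blue) libraries, with a symbol for each library number and the mean and SD of 3 libraries beside them. The groups stand apart for 7 genes and overlap for H2-K1 and H2-D1, and CD11c+ library 1 is the lowest CD11c+ library in each panel.

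The transporter genes carried some of the largest differences. Tap1 (ENSMUSG00000037321), a subunit of the peptide pump, was at 178, 162 and 144 CPM in the MRC1+ libraries and at 249, 330 and 316 in the CD11c+ libraries. Every MRC1+ library was lower than every CD11c+ library, with means of 161 ± 16.8 and 298 ± 43.3 (SD, n = 3). Tap1 fell by 0.89 ± 0.13 (log2 fold change ± SE, edgeR adjusted p = 0.00320). Its partner Tap2 (ENSMUSG00000024339) was at 54.0, 49.8 and 42.7 CPM against 70.2, 82.0 and 80.9. The groups of Tap2 did not overlap, and it fell by 0.67 ± 0.11 (edgeR adjusted p = 0.00573). Tapbp (ENSMUSG00000024308), which bridges the transporter and the heavy chain, was at 268, 276 and 261 CPM against 332, 374 and 351. The MRC1+ libraries of Tapbp lay close together and below all CD11c+ libraries, a fall of 0.39 ± 0.09 (edgeR adjusted p = 0.0178). The call of Tapbp was lost without any 1 of the MRC1+ libraries or without the second CD11c+ library (adjusted p = 0.0521 to 0.0786) and with scaling by library totals (adjusted p = 0.0884).

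Both immunoproteasome subunits measured fell. Psmb8 (ENSMUSG00000024338), the inducible counterpart of Psmb5, was at 137, 111 and 108 CPM in MRC1+ TAMs and at 198, 220 and 246 in CD11c+ TAMs. The groups were well apart, and Psmb8 fell by 0.90 ± 0.13 (edgeR adjusted p = 0.00242). Psmb10 (ENSMUSG00000031897), the counterpart of Psmb7, was at 74.4, 66.0 and 62.2 CPM against 88.8, 99.4 and 119. Psmb10 fell by 0.60 ± 0.12 with no overlap (edgeR adjusted p = 0.0149), a call lost without the second or the third MRC1+ library (adjusted p = 0.0590 and 0.0633).

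Nlrc5 (ENSMUSG00000074151), the transactivator that acts on class I promoters, was at 148, 154 and 130 CPM in MRC1+ TAMs and at 178, 230 and 194 in CD11c+ TAMs. It fell by 0.48 ± 0.12 with no overlap (edgeR adjusted p = 0.0284). The call of Nlrc5 was lost without any 1 of the libraries other than the first CD11c+ library (adjusted p = 0.0514 to 0.102) and with scaling by library totals (adjusted p = 0.0879).

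The 3 genes of the class I molecule itself did not pass, though the values of B2m and H2-K1 lay close to that of Tapbp. B2m (ENSMUSG00000060802) was at 1218, 1057 and 1082 CPM in the MRC1+ libraries and at 1248, 1449 and 1566 in the CD11c+ libraries. Its groups did not overlap, yet the log2 fold change of -0.34 ± 0.12 did not pass (edgeR adjusted p = 0.0819). H2-K1 (ENSMUSG00000061232) was at 1016, 920 and 907 CPM against 1013, 1251 and 1412, so that the first library of each group overlapped. Its log2 fold change was -0.37 ± 0.13 (edgeR adjusted p = 0.0952). H2-D1 (ENSMUSG00000073411) was at 1496, 1231 and 1277 CPM against 1266, 1448 and 1610. The H2-D1 groups overlapped broadly, at -0.11 ± 0.13 (edgeR adjusted p = 0.585), and the sign turned to 0.02 with scaling by library totals. H2-K1 and H2-D1 resemble each other and other class I genes in sequence, and reads aligned to several places were not counted to genes, so their counts may be split or lost.

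CD11c+ library 1 was the lowest CD11c+ library for all 9 genes, with a mean log2 deviation over them of 0.08 against 0.33 and 0.38 in the other CD11c+ libraries. The fibroblast markers, 7 genes, summed to 1189 CPM in it and to 270 and 329 CPM in the other CD11c+ libraries, against 616 to 867 in MRC1+ TAMs, and their part in the class I levels was not tested. Without that library 8 of the 9 genes passed, B2m (edgeR adjusted p = 0.0171) and H2-K1 (edgeR adjusted p = 0.00947) among them, while the calls over all genes rose from 2597 of 15622 to 4707 of 15926. Without the second or the third MRC1+ library 3 of the 9 passed, Tap1, Tap2 and Psmb8, which also passed in every other setting tried. With the other settings that kept all libraries, 4 to 8 passed. The calls over all genes varied as well, from 1270 to 4707 under the 13 alternatives, those leaving out a library among them.

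**Figure D2:**
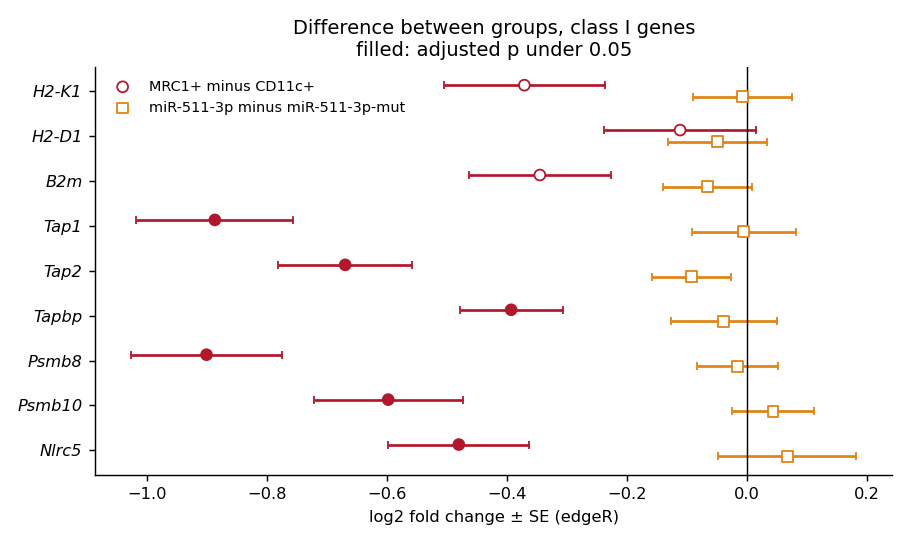
The log2 fold change (horizontal axis) of each class I gene with its SE from edgeR, for MRC1+ minus CD11c+ TAMs (red circles) and miR-511-3p minus miR-511-3p-mut TAMs (orange squares), filled where the adjusted p was under 0.05. The 6 filled points all belong to the sorted comparison, from -0.90 for Psmb8 to -0.39 for Tapbp, and the orange squares lie between -0.09 and 0.07.

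Markers of other cell types moved with this comparison. The 8 dendritic cell markers summed to 29.7, 29.7 and 27.3 CPM in the MRC1+ libraries and to 225, 245 and 426 CPM in the CD11c+ libraries, none at 0, and 7 of the 8 passed as lower in MRC1+ TAMs. The 4 endothelial markers summed to 30.5 to 39.8 CPM in MRC1+ and 81.0 to 124 in CD11c+ TAMs, with Pecam1 and Kdr lower and Cdh5 2.40-fold higher in MRC1+ TAMs (edgeR adjusted p = 0.00102, 0.0253 and 0.0288). The 4 epithelial markers summed to 63.0 to 93.1 against 87.1 to 103 CPM and went both ways. Cdh1 and Epcam were 13.1-fold and 13.2-fold lower, and Krt8 and Krt18 2.28-fold and 2.19-fold higher in MRC1+ TAMs, and all 4 passed. The 10 T and NK cell markers overlapped in their sum (69.1 to 139 against 31.2 to 119 CPM), most of which was Cd4. Of the 8 tested, 7 were below 0, and Gzma and Klrb1c passed as 4.29-fold and 3.35-fold lower. The macrophage sums overlapped too (9507 to 12172 against 8849 to 12374 CPM), with Adgre1 and Mertk 1.74-fold and 1.45-fold higher in MRC1+ TAMs (edgeR adjusted p = 0.00733 and 0.0270). The B cell sums were 6.43 to 6.71 and 6.14 to 6.79 CPM. The 4 neutrophil markers summed to 55.0 to 73.1 against 50.4 to 112 CPM, and 1 of the 3 tested passed as lower in MRC1+ TAMs. The 8 mitochondrially encoded genes, a sign of RNA quality, summed to 2752 to 3464 against 2859 to 3006 CPM, and of the 7 tested 2 passed as higher in MRC1+ TAMs, mt-Nd5 and mt-Nd6, with a median log2 fold change of 0.48. The part of these cells and of RNA quality in the class I differences was not tested. In bulk RNA, fewer cells of a type and less RNA per cell cannot be told apart.

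The RNA balance of proteasome subunits was read within each library. It was the ratio of reads per kilobase of an inducible subunit to its constitutive counterpart, which needs no scaling between libraries. Such a ratio does not measure which subunits enter the proteasome. The log2 ratio of Psmb8 to Psmb5 was 1.36, 1.27 and 0.99 in the MRC1+ libraries and 1.89, 2.04 and 1.82 in the CD11c+ libraries. The groups did not overlap, and the ratio was 1.63-fold lower in MRC1+ TAMs (means 1.21 ± 0.20 and 1.92 ± 0.11, SD, n = 3, exact two-sided permutation p = 0.1). The log2 ratio of Psmb10 to Psmb7 was 0.17, 0.33 and 0.18 in MRC1+ and 0.38, 0.70 and 0.66 in CD11c+ TAMs. This ratio was 1.27-fold lower in MRC1+ TAMs, again with no overlap (exact two-sided permutation p = 0.1, n = 3). With 3 libraries against 3 the smallest p possible is 0.1, and both stayed at 0.1 after adjustment over the 2 ratios. The constitutive subunits themselves gave log2 fold changes of -0.24 for Psmb7, -0.19 for Psmb5 and -0.16 for Psmb6, none of which passed (edgeR adjusted p = 0.194, 0.381 and 0.405). Only the difference between groups can be read from either ratio, since the exon lengths come from a later annotation than the counts. Reads of Psmb5 that align to several places were also not counted.

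**Figure D3:**
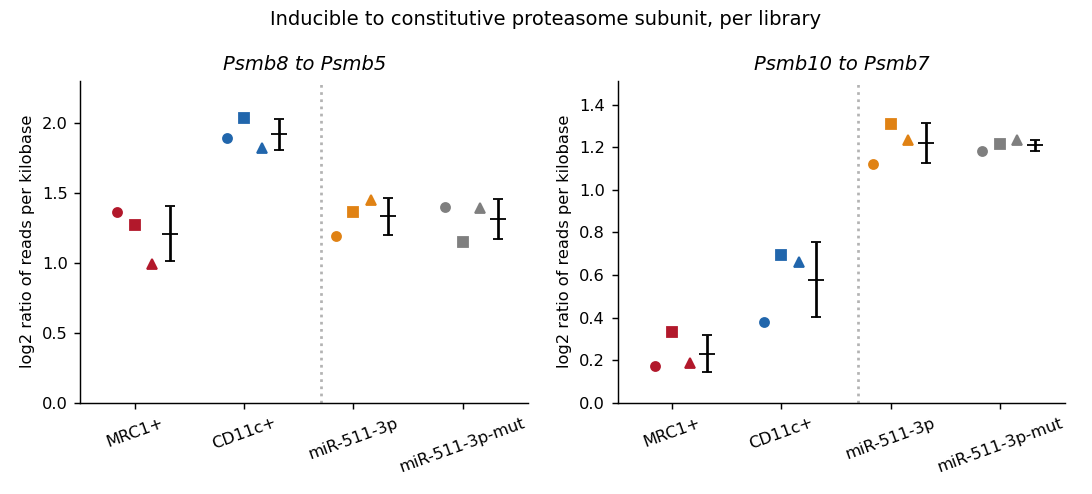
The log2 ratio of reads per kilobase of Psmb8 to Psmb5 (left) and of Psmb10 to Psmb7 (right) in each of the 12 libraries, with the mean and SD of each group and a dotted line between the sorted and the overexpression groups. The MRC1+ libraries lie below the CD11c+ libraries in both panels, by 0.71 and 0.35 in the mean, while the miR-511-3p and miR-511-3p-mut libraries overlap.

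Other genes of the pathway were read from 7 lists, of which 72 genes were tested in each comparison. In MRC1+ against CD11c+ TAMs 24 of the 72 passed as lower and 1 as higher, with a median log2 fold change of -0.28. Over all genes tested 9.71% passed as lower and 16.6% in either direction, the shares to set beside each list below. The count of 25 passing was 16 without the second or without the third MRC1+ library. The calls over all genes fell as well, from 2597 to 1270 without the second.

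Among the other class I and class I-like chains, 6 of 15 genes tested passed as lower and 1 as higher. Fcgrt, the heavy chain of the neonatal Fc receptor, which pairs with B2m but carries IgG and albumin in place of peptide, was the gene that rose. It was at 278, 260 and 267 CPM in MRC1+ TAMs and at 73.0, 92.2 and 70.5 CPM in CD11c+ TAMs, 3.41-fold higher (log2 fold change 1.77 ± 0.12, edgeR adjusted p = 8.5e-05). Cd1d1, which shows lipids to NKT cells, fell by 2.24 ± 0.21, from 23.4 ± 5.36 CPM in CD11c+ to 4.94 ± 1.01 in MRC1+ TAMs (SD, n = 3, edgeR adjusted p = 0.000398). H2-Q6, a non-classical chain with close relatives in sequence, fell by 0.84 ± 0.12 (edgeR adjusted p = 0.00250).

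The proteasome activator showed both outcomes. Psme1, a subunit of the interferon-inducible PA28 cap, was at 89.8, 80.6 and 78.0 CPM in MRC1+ TAMs and at 123, 134 and 145 CPM in CD11c+ TAMs, and fell by 0.69 ± 0.10 (edgeR adjusted p = 0.00253). Its partner Psme2 fell by 0.56 ± 0.11 (edgeR adjusted p = 0.00994). Psme3, which forms a separate nuclear cap, gave -0.12 ± 0.08 (edgeR adjusted p = 0.310), and Psme4 also did not pass. Of 12 other core subunits and assembly factors of the proteasome 2 passed, a share close to the 16.6% over all genes. They were Psma1 at -0.43 and Psma4 at -0.44 (edgeR adjusted p = 0.0311 and 0.0453). All 12 were below 0, with a median of -0.30. Pomp, the assembly chaperone, was at -0.41 (edgeR adjusted p = 0.0563).

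In the endoplasmic reticulum 1 of 7 loading and quality control genes passed, a share no higher than the 16.6% over all genes. Tapbpl, a relative of tapasin that edits peptides, fell by 0.44 ± 0.12 (edgeR adjusted p = 0.0357), and its adjusted p was 0.0510 with the replicate number as a block. Erap1, which trims peptides to the length class I takes, was at -0.35 ± 0.11 (edgeR adjusted p = 0.0589, and 0.0267 with the block). The chaperone Hspa5 was at -0.27 (edgeR adjusted p = 0.144).

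Among the regulators 7 of 14 tested passed, all lower in MRC1+ TAMs. Ciita, the transactivator of MHC class II genes and a relative of Nlrc5, was at 60.9, 49.5 and 30.8 CPM in MRC1+ and at 254, 278 and 247 CPM in CD11c+ TAMs. Ciita was 5.52-fold lower in MRC1+ TAMs and Nlrc5 1.39-fold lower (log2 fold change of Ciita -2.47 ± 0.22, edgeR adjusted p = 0.000319). The difference between these folds was not tested. Jak2, a kinase of the interferon gamma receptor, fell by 1.27 ± 0.14, and the receptor chain Ifngr1 fell by 0.79 ± 0.11 (edgeR adjusted p = 0.000926 and 0.00242). The other kinase of that receptor, Jak1, gave -0.20 ± 0.08 and did not pass (edgeR adjusted p = 0.113). The transcription factor Irf1, named like Jak1 after its values were seen, fell by 0.65 ± 0.13 (edgeR adjusted p = 0.0128). Ifng itself was below the count filter, with 1, 1 and 0 reads in MRC1+ and 8, 5 and 0 reads in CD11c+ libraries.

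Of 17 genes of cross-presentation and cytosolic peptide trimming, 6 passed as lower in MRC1+ TAMs and none as higher. Cybb, the catalytic subunit of the phagosomal NADPH oxidase, fell by 0.998 ± 0.111, from 1419 ± 131 CPM to 711 ± 54.3 (SD, n = 3, edgeR adjusted p = 0.00087). Wdfy4, which dendritic cells need for cross-presentation, fell by 1.02 ± 0.12 (edgeR adjusted p = 0.00114). Rab27a, a small GTPase that moves vesicles to the phagosome, fell by 1.76 ± 0.21 (edgeR adjusted p = 0.00123). The dendritic cell markers given above moved in the same direction as these genes, and their part in the difference was not tested.

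**Figure D4:**
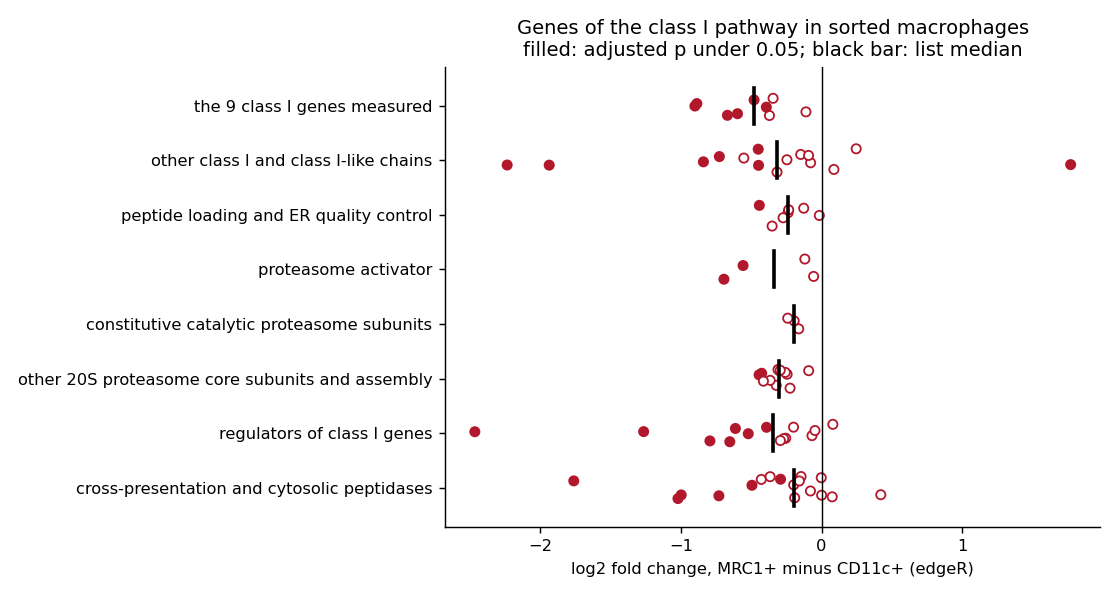
The log2 fold change from edgeR (horizontal axis, MRC1+ minus CD11c+ TAMs) of each gene tested, for the 9 class I genes and the 7 lists of other pathway genes, filled where the adjusted p was under 0.05, with a black bar at the median of each list. All medians lie below 0, from -0.48 for the 9 class I genes to -0.19 for the constitutive catalytic subunits, and Fcgrt at 1.77 is the single filled point to the right.

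The genes whose log2 CPM followed the mean of the 9 standardized class I genes most closely over the 6 sorted libraries were Arpc5, Atp1b3, H2-T-ps, Erg28 and Rasa3. Their Pearson r was between 0.996 and 0.998, the highest among 9664 other genes with a mean of at least 10 CPM. The 6 points fall into 2 groups, so this likeness includes the difference between the groups, and it is a description with no test.

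The second comparison asks what miR-511-3p changes against its mutated form. The class I genes did not differ detectably: 0 of 9 passed, 0 had an unadjusted p under 0.05, and for 0 of them did the groups stand apart. Over all 14054 genes tested 0% passed and 2.44% had an unadjusted p under 0.05, and 6.38% had groups that did not overlap in either direction. DESeq2 called none of the 9 class I genes. The log2 fold changes ran from -0.09 ± 0.07 for Tap2 to 0.07 ± 0.11 for Nlrc5, with a median of -0.02 (all edgeR adjusted p = 0.999883). The SE of the 9 values was 0.07 to 0.11, and that a gene did not pass does not show that it was equal in both groups.

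H2-K1 was at 1482, 1714 and 1516 CPM in the miR-511-3p libraries and at 1511, 1634 and 1591 in the miR-511-3p-mut libraries. B2m was at 1784, 1929 and 1741 CPM against 1896, 1839 and 1969. In both genes the ranges overlapped, and the second miR-511-3p library was the highest of its group, as it was for all 9 genes. Tap1 was at 303, 332 and 304 CPM against 347, 287 and 308.2, and Tap2 was at 100.4, 113 and 99.9 CPM against 113, 110 and 112. The libraries of Tap1 interleaved, and those of Tap2 in miR-511-3p-mut TAMs lay within the range of the miR-511-3p libraries. The means of H2-D1 were 2080 ± 148 and 2152 ± 102 CPM, those of Tapbp 438 ± 34.0 and 449 ± 36.4, those of Psmb8 230 ± 10.4 and 233 ± 12.8, those of Psmb10 137 ± 10.7 and 133 ± 0.591, and those of Nlrc5 217 ± 12.6 and 207 ± 32.4 (SD, n = 3).

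**Figure D5:**
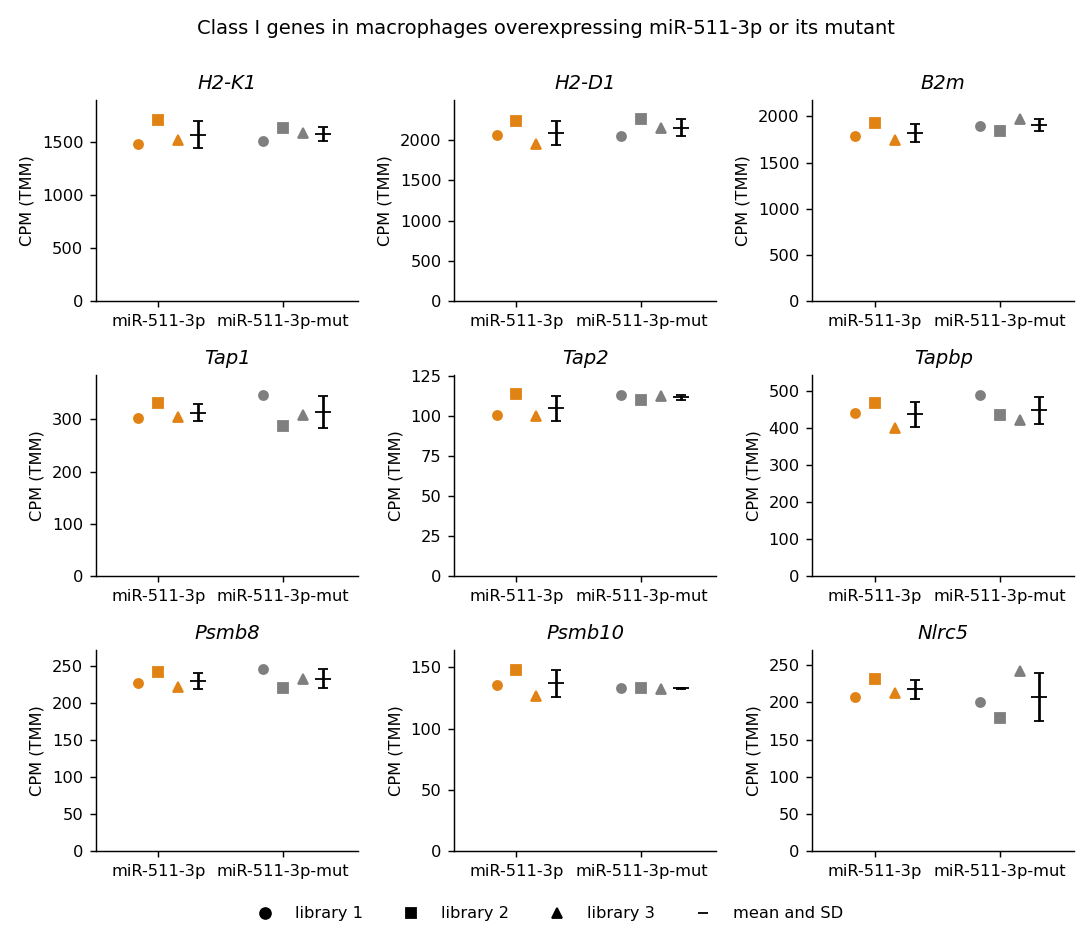
CPM of the 9 class I genes (vertical axes from 0) in the miR-511-3p (orange) and miR-511-3p-mut (grey) libraries, with a symbol for each library number and the mean and SD of 3 libraries beside them. The groups overlap in each of the 9 panels, and miR-511-3p library 2 is the highest of its group throughout.

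The proteasome subunit ratios overlapped too, with differences of 0.02 for Psmb8 to Psmb5 and 0.01 for Psmb10 to Psmb7 on the log2 scale (exact two-sided permutation p = 0.7 and 0.9, n = 3). None of the 72 other pathway genes passed edgeR's test, and 0 had an unadjusted p under 0.05; DESeq2 called 0 of them. Ciita, the gene of lowest p among the regulators, was at -0.23 ± 0.12, with means of 168 ± 15.0 and 197 ± 30.0 CPM (SD, n = 3). The dendritic cell markers (17.8 to 27.2 against 19.9 to 27.3 CPM) overlapped between the groups. So did the neutrophil markers (66.4 to 82.2 against 62.7 to 132 CPM), with 2 of 3 genes tested below 0 (median log2 fold change -1.05). The epithelial sums overlapped too (6.81 to 20.4 against 9.19 to 13.2 CPM). Of 3 epithelial genes tested 2 were below 0 (median -0.97), and 1 had an unadjusted edgeR p under 0.05. The fibroblast markers summed to 83.4, 83.0 and 254 CPM against 170, 158 and 636, overlapping only through the third miR-511-3p library. Of these 7 genes 6 were below 0 (median log2 fold change -1.42). An unadjusted edgeR p under 0.05 was reached by 3 of the 7, against 2.44% of all genes. All 5 T and NK cell markers tested were below 0 (median -1.74), 1 with such a p, and no gene of any of these marker lists passed. The part of these cells in the class I levels was not tested. The genes most like the mean of the 9 class I genes over these 6 libraries were Usp47, Ifitm3, Rabepk, Ppp4r2 and Ccng1. Their Pearson r of 0.962 to 0.984 was picked as the highest among 9233 genes over only 6 libraries. It is a description with no test.

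Levels can be set side by side between genes and over all 4 groups only per length, as RPKM, reads divided by exon length in kilobases and by library size, scaled over the 12 libraries. B2m had the highest level in every group, at 1244 ± 95.4 RPKM in MRC1+, 1582 ± 179 in CD11c+, 2203 ± 115 in miR-511-3p and 2314 ± 59.5 in miR-511-3p-mut TAMs (SD, n = 3). H2-D1 and H2-K1 followed, at 495 and 308.4 RPKM in MRC1+ TAMs and at 535 and 399 in CD11c+ TAMs. Tapbp (70.7 and 93.0 RPKM) came next, and Nlrc5 (16.2 and 22.6) and Tap2 (12.3 and 19.7) had the lowest levels. All 9 genes had their lowest mean in MRC1+ TAMs and their second lowest in CD11c+ TAMs. The lowest and second groups stood apart for 8 genes on this scale, with H2-D1 the exception and H2-K1 by the narrowest margin. The second lowest and the third groups overlapped for Tap1, Psmb8 and Nlrc5, and the third and highest, both overexpression groups, overlapped for all 9. The sorted and overexpression libraries also differ in reads that fell in no gene (19.7% to 26.6% against 7.64% to 10.4% of a library) and in 8 mitochondrially encoded genes (2752 to 3464 against 8624 to 10049 summed CPM, each comparison scaled on its own), so the cells and the libraries cannot be told apart as sources of these levels, and no test was made between them.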

How the data were processed

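RNA-seq libraries were made from total RNA with an Illumina TruSeq RNA kit after heat fragmentation, per the labels' protocols. The authors deposited raw read counts per Ensembl gene, in whole numbers, for each of the 12 libraries. Bowtie, TopHat 1.2.0, SAMtools 0.1.12a and HTSeq were used with the mouse build mm9 (NCBIM37), per the submitters' processing notes. The sources used here give neither counting mode nor strand, and reads from a gene and an overlapping or antisense partner cannot be told apart. The 5 summary entries of each deposited count table, 40.2% to 44.8% of a sorted and 23.1% to 26.0% of an overexpression library, name no gene and entered neither library sizes nor tests.

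Gene symbols and exon lengths came from GENCODE M21 (GRCm38). The counts were made on an earlier build, and gene coordinates are therefore left out. Symbols matched 31819 of the 36439 identifiers, and 76 of the 77 other pathway genes. The promoter windows are RefSeq's, on GRCm38.p6.

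Each comparison used edgeR 4.0.16 (quasi-likelihood test, TMM scaling, filterByExpr, Benjamini-Hochberg adjustment at 0.05) in R 4.3.3 on its 6 libraries with no block. CPM use the TMM factors of those libraries, except the opening values of the sorting markers, which use library totals. The SE was taken as the size of the log2 fold change over the root of the F statistic. Of the steps, only the edgeR fit was tested on simulated counts. That simulation gave all genes the same spread and used changes larger than any seen among the class I genes here. Subunit ratios used an exact permutation test. The gene rule took the 10 class I genes, up to 3 genes of lowest p in each list, the genes of the ratios and 5 genes of closest likeness. The genes and lists were chosen with earlier results of these data known. Alternatives were DESeq2 1.42.0, upper-quartile scaling, library totals, no filter, a filter of 5 CPM in 3 libraries, all 12 libraries in one fit, a replicate block and leaving out each library.

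The labels number the replicates. The departures of libraries with the same number from the mean of their group correlated across genes at 0.104, 0.337 and 0.250 in the sorted and at 0.147, 0.258 and 0.462 in the overexpression groups. All were above 0.1, but no label says that equal numbers are pairs. The main tests therefore used no block, and pairing by number entered only as the replicate block among the alternatives. The first miR-511-3p library, however, correlated better with the second miR-511-3p-mut library, at 0.166, than with the first.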

Additional observations from a re-analysis of the deposited data

How the results depend on the processing

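Of the 117 values of the 9 class I genes in MRC1+ against CD11c+ TAMs under the 13 alternatives, 98 kept their direction and their side of the threshold, 13 lost the call, 5 gained it and 1 turned sign (H2-D1, 0.0207 with library totals). Among the named pathway genes Psme3 turned to 0.00831 with library totals. Library totals moved the median log2 fold change of all genes by 0.13, and all 9 class I genes stayed below that median in every setting tried. Leaving out 1 library at a time, 3 to 8 class I genes passed, with 3 without the second or the third MRC1+ library, and 16 to 33 other pathway genes, with 16 without either of those. The count over all genes ran from 1270 without the second MRC1+ library and 1279 without the third to 4707 without the first CD11c+ library, with 1490 without the second.

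With the replicate block 6 class I genes and 25 other pathway genes passed, as without it, and the subunit ratios of the sorted groups had exact sign-flip p = 0.25, the smallest that 3 pairs allow. Beside Tapbpl and Erap1 no named call of the sorted comparison changed with the block; in the overexpression comparison 0 class I genes passed with it.

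In miR-511-3p against miR-511-3p-mut TAMs 0 class I genes passed under any alternative, and DESeq2, the fit of all libraries and the block each called 1 gene among all genes. Values near 0 changed sign in places. With 1 library left out at a time the log2 fold change ranged from -0.0739 to 0.0343 for H2-K1, from -0.0644 to 0.0694 for Tap1 (0.000715 with no filter), from -0.0907 to 0.0262 for Tapbp, from -0.0527 to 0.0217 for Psmb8, from -0.0166 to 0.0934 for Psmb10, from -0.0267 to 0.195 for Nlrc5, from -0.150 to 2.84 for H2-M2, from -0.0774 to 0.346 for Hspa5 and from -0.0116 to 0.0868 for Psmb7. The log2 difference in the ratio of Psmb8 to Psmb5 ranged from -0.0593 to 0.0939, and in that of Psmb10 to Psmb7 from -0.0336 to 0.0604. The cause was not tested.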

Other observations

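H2-M2, a non-classical class I chain, varied widely between libraries of the overexpression groups. It had 319 reads in the first miR-511-3p library against 35 and 45 in the others, and 22, 18 and 82 in the miR-511-3p-mut libraries. In the sorted groups it had 543, 852 and 368 reads in MRC1+ and 1784, 3259 and 857 in CD11c+ TAMs. The gene was singled out after its values were seen.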
